A study of Mus musculus with 3 samples.

Results

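The transforming growth factor beta (TGF-beta) pathway was followed through 10 genes, the 3 ligand genes Tgfb1, Tgfb2 and Tgfb3, the 3 receptor genes Tgfbr1, Tgfbr2 and Tgfbr3, and the SMAD genes Smad2, Smad3, Smad4 and Smad7. They were taken by symbol from a table of 17857 genes, in which all 10 were present. RNA came from leukocytes of C57BL/6J mice that carried B16F10 melanomas, implanted on both sides in the upper thigh, and that received no treatment. The tumour-draining lymph nodes were taken on day 14 and pooled, and cells that displayed Ly6C and c-kit and lacked CD11c were sorted. The 3 libraries, from repeat experiments called replicates 1, 2 and 3 here, form 1 group. There was no other population, genotype or treatment to set them against. Neither age, sex nor pool size of the mice is stated in the labels, so the spread between libraries may be biological or technical.

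TGF-beta ligands are secreted as latent complexes and must be released before they can bind. The active dimer binds the type II receptor, which recruits and phosphorylates the type I receptor. The type I receptor in turn phosphorylates Smad2 and Smad3, which join Smad4 and enter the nucleus. In lymph nodes the pathway is known for restraining T cell activation and for favouring regulatory T cells, and in myeloid cells for tempering inflammatory programmes.

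Total counts were 9077195 to 13885509 per library. Replicate 1 stood apart. It was the shallowest, mitochondrial ribosomal RNA took 17.8% of its counts (6.22% and 13.1% in replicates 2 and 3), and olfactory receptor genes, which leukocytes rarely use, averaged 0.249 CPM per kilobase of gene in it (0.0207 and 0.0495). CPM, the normalised read count used here, scales each library to a common total with TMM factors. Though the labels call the sorted cells precursors, 7 T cell markers summed to 2583 to 3208 CPM, and the progenitor genes Kit, Flt3 and Cd34 to 13.4 to 23.4 CPM. The pathway's transcripts were therefore measured in a mixture, and which of the cells held them was not tested. In such bulk samples fewer cells of a type and less RNA per cell cannot be told apart.

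**Figure D1:**
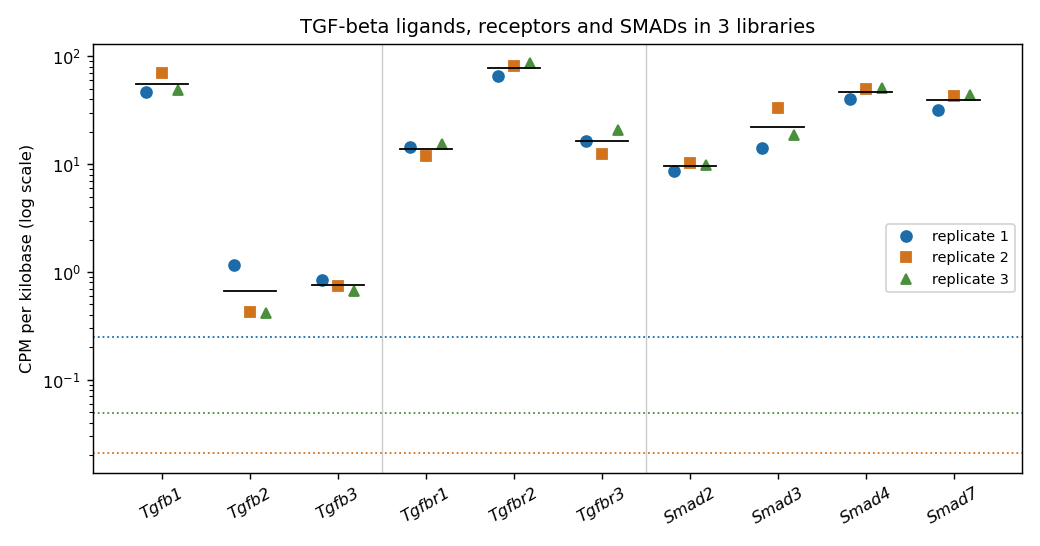
Level of each member in CPM per kilobase of gene (log axis), 1 symbol per library, with a black line at the mean of 3. Dotted lines give the mean of olfactory receptor genes in the library of the same colour. Of the ligands, Tgfb1 alone lies near the receptors and SMADs, while Tgfb2 and Tgfb3 lie at about 1 CPM per kilobase or below.

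Tgfb1 carried nearly all of the ligand signal. Together the 3 ligand genes came to 48.6, 71.7 and 49.8 CPM per kilobase in replicates 1, 2 and 3, and Tgfb1 held 95.9%, 98.4% and 97.8% of it (97.4 ± 1.31%, SD, n = 3). These values rest on the deposited gene lengths. With the length of all exons annotated in GENCODE vM21, mean levels were 23.0 CPM per kilobase for Tgfb1, 0.545 for Tgfb2 and 0.752 for Tgfb3. In the mouse genome (GRCm38, the assembly that mm10 represents) Tgfb1 is Entrez gene 21803 on chromosome 7, 25687002 to 25705077. Tgfb2 is Entrez gene 21808 on chromosome 1, 186622787 to 186709697, and Tgfb3 is Entrez gene 21809 on chromosome 12, 86056743 to 86079041. These spans cover exons and introns.

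The 3 ligands are related in sequence, so the last 90 coding bases before the stop codon are shown to let the reader see how far their messengers can be told apart. The bases come from GENCODE vM21 on GRCm38, read 5′ to 3′ along the transcript, and capitals mark positions at which the 3 genes are not all alike.
Tgfb1: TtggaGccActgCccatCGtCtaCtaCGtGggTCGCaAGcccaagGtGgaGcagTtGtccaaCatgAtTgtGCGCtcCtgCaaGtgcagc
Tgfb2: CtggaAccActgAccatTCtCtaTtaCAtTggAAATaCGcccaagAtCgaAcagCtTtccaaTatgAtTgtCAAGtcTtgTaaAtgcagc
Tgfb3: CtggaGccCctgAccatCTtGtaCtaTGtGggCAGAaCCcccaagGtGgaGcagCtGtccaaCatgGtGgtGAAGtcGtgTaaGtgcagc

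All 3 had the same base at 58 of these 90 positions. Tgfb1 matched Tgfb3 at 71 positions (78.9%) and Tgfb2 at 64 (71.1%), and Tgfb2 matched Tgfb3 at 67 (74.4%). Over all annotated transcripts of the 10 members, no run of 30 bases was shared between any pair of ligands on either strand. Of the 45 pairs of members, 2 shared any such run, counted as windows of 30 bases that may overlap. Tgfb1 shared 9 windows with Tgfbr2 on the same strand, and Tgfb2 shared 2 with Tgfbr2 on the opposite strand.

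Tgfb1, the ligand most used by leukocytes, had 97.6, 148 and 102 CPM in the libraries of replicates 1, 2 and 3. Replicate 2 was highest, and the other libraries lay close to each other. Its mean was 116 ± 27.7 CPM (SD, n = 3), and it lay above 50 CPM by 1.21 on the log2 scale (edgeR's quasi-likelihood test, adjusted p = 3.32e-04). That test asked of every gene with at least 10 counts over the libraries if it lay above or below 50 CPM and, in another run, 1 CPM. Benjamini-Hochberg adjustment ran over 15490 genes, and the threshold was 0.05. A level of 50 CPM is a fixed mark for an abundant messenger and carries no biological meaning of its own.

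Tgfb2, a ligand known mostly from epithelia, muscle and the developing embryo, was read at 5.49, 2.00 and 1.97 CPM, from 52, 28 and 26 counts. Replicate 1 was the highest, and its 95% counting interval of 4.10 to 7.21 CPM did not overlap that of replicate 2 (1.33 to 2.89) or replicate 3 (1.29 to 2.89). Such intervals cover counting error only. Tgfb3, whose product binds the same receptors, was read at 2.85, 2.50 and 2.28 CPM, from 27, 35 and 30 counts, and its intervals overlapped between all libraries. Both lay below 50 CPM, Tgfb2 by -3.99 and Tgfb3 by -4.29 on the log2 scale (edgeR adjusted p = 0.00221 and 0.00194). Both also lay above 1 CPM (adjusted p = 0.00969 and 0.0334). Tgfb2, 1.63 above 1 CPM on the log2 scale, was 0.94 above it and no longer passed without replicate 1 (adjusted p = 0.133), and Tgfb3 no longer did without replicate 2 (0.108) or without replicate 3 (0.195).

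Per kilobase, Tgfb2 stood at 1.16, 0.423 and 0.418 and Tgfb3 at 0.843, 0.737 and 0.673 CPM per kilobase. Each value exceeded the mean of the olfactory receptor genes in its own library, 0.249, 0.0207 and 0.0495 CPM per kilobase. The library in which Tgfb2 was highest, replicate 1, was also the one with the most counts over olfactory receptor genes and over the 5 stromal markers, whose summed level was 18.8, 2.28 and 3.42 CPM. Of these markers, 4 of 5 were highest in replicate 1, and Lum had no count in replicate 2. This was not particular to stroma. All 5 B cell, 6 macrophage, 5 erythroid, 5 platelet and 3 type 1 dendritic cell markers were highest in replicate 1 as well. The part of any of these lists in the level of Tgfb2 was not tested. In GENCODE vM21, genes on the opposite strand overlap exons of Tgfb2 by 124 bases and of Tgfb3 by 163 and 257 bases. Whether the counting used strand is not given in the sources used here, so reads there could belong to either strand.

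Among the receptors, Tgfbr2 was far above the others. Tgfbr2 encodes the type II receptor, which binds the ligand, and reached 316, 390 and 412 CPM in the libraries of replicates 1, 2 and 3. Replicate 1 was lowest and replicates 2 and 3 lay close together. Its mean of 372 ± 50.5 CPM (SD, n = 3) was the highest of the 10 members and stood at the 97.8th percentile of the genes tested, and it lay above 50 CPM by 2.90 on the log2 scale (edgeR adjusted p = 4.62e-07). Tgfbr2 is Entrez gene 21813 on chromosome 9, 116087695 to 116175363.

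Tgfbr1, the type I receptor that phosphorylates Smad2 and Smad3, was read at 81.6, 68.0 and 87.6 CPM (79.1 ± 10.1). The libraries differed by at most 1.29-fold, with replicate 2 the lowest. Tgfbr3, the coreceptor betaglycan, which presents ligand to the type II receptor, was read at 99.4, 75.0 and 125 CPM (99.7 ± 24.8), again lowest in replicate 2. Both lay above 50 CPM, by 0.66 and 0.99 on the log2 scale (edgeR adjusted p = 0.00313 and 7.78e-04). Tgfbr1 is Entrez gene 21812 on chromosome 4, 47353222 to 47414926, and Tgfbr3 is Entrez gene 21814 on chromosome 5, 107106567 to 107289629. In GENCODE vM21, Gm43422 on the same strand overlaps exons of Tgfbr3 by 297 bases, and the deposited counts do not list it.

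Per kilobase and within each library, Tgfbr2 exceeded Tgfbr1 by 2.19, 2.76 and 2.47 on the log2 scale (mean 2.48 ± 0.28, SD, n = 3), a 5.57-fold difference. The size rests on the gene length used. The mean was 2.23 in CPM without length and 1.91 with GENCODE exon lengths, in which Tgfbr2 has 8187 bases against 4788 deposited. Tgfbr1 minus Tgfbr3 was -0.19, -0.05 and -0.41 (-0.22 ± 0.18), so Tgfbr3 was higher in each library by little more than the spread. With 3 libraries an exact two-sided permutation test of such a difference cannot give a p below 0.25, and the 8 differences between members therefore stand as descriptions. Of the 8, 7 reached that smallest p (0.286 after adjustment over the 8).

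Smad4 and Smad7 had the highest mean levels of the 4 SMADs, though Smad3 reached their range in replicate 2. Smad4, the common partner of the phosphorylated SMADs, was read at 133, 166 and 172 CPM (157 ± 20.7). Smad7, the inhibitory SMAD that the pathway itself induces and that blocks the type I receptor, was read at 142, 189 and 194 CPM (175 ± 28.9). In both, replicate 1 was the lowest and replicates 2 and 3 lay close together. Smad4 lay above 50 CPM by 1.65 and Smad7 by 1.81 on the log2 scale (edgeR adjusted p = 1.72e-05 and 1.16e-05).

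Smad2, a receptor-regulated SMAD, was the most even member, with 79.8, 92.9 and 89.8 CPM (87.5 ± 6.86, adjusted p = 8.50e-04 against 50 CPM by edgeR). Its highest library exceeded the lowest by 1.16-fold, against a median of 1.39-fold over the 3084 genes above 50 CPM. Smad3, the other receptor-regulated SMAD, was uneven, with 71.9, 167 and 95.8 CPM (112 ± 49.7). Replicate 2 held 2.33 times the level of replicate 1, and 96.6% of the genes above 50 CPM were more even than this. Smad3 lay above 50 CPM by 1.16 on the log2 scale (edgeR adjusted p = 0.00127). Per kilobase, Smad3 exceeded Smad2 by 0.69, 1.69 and 0.94 in replicates 1, 2 and 3 (mean 1.11 ± 0.52). Smad4 exceeded Smad2 by a steadier 2.29 ± 0.10 and Smad7 exceeded Smad2 by 2.03 ± 0.14 (SD, n = 3). Much of each difference lies in the length of Smad2, 9142 bases against 5090 for Smad3, 3341 for Smad4 and 4441 for Smad7. In CPM, without length, Smad3 minus Smad2 was -0.15, 0.85 and 0.09 (mean 0.26 ± 0.52), so Smad3 was the lower of the pair in replicate 1. On that scale Smad4 exceeded Smad2 by 0.84 ± 0.10 and Smad7 exceeded Smad2 by 0.99 ± 0.14, in 3 of 3 libraries each.

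Smad3 is Entrez gene 17127 on chromosome 9, 63646766 to 63757994. The other 3 SMAD genes lie on chromosome 18, Smad4 (Entrez gene 17128) at 73634790 to 73703791, Smad7 (17131) at 75367365 to 75395935 and Smad2 (17126) at 76241090 to 76311748.

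**Figure D2:**
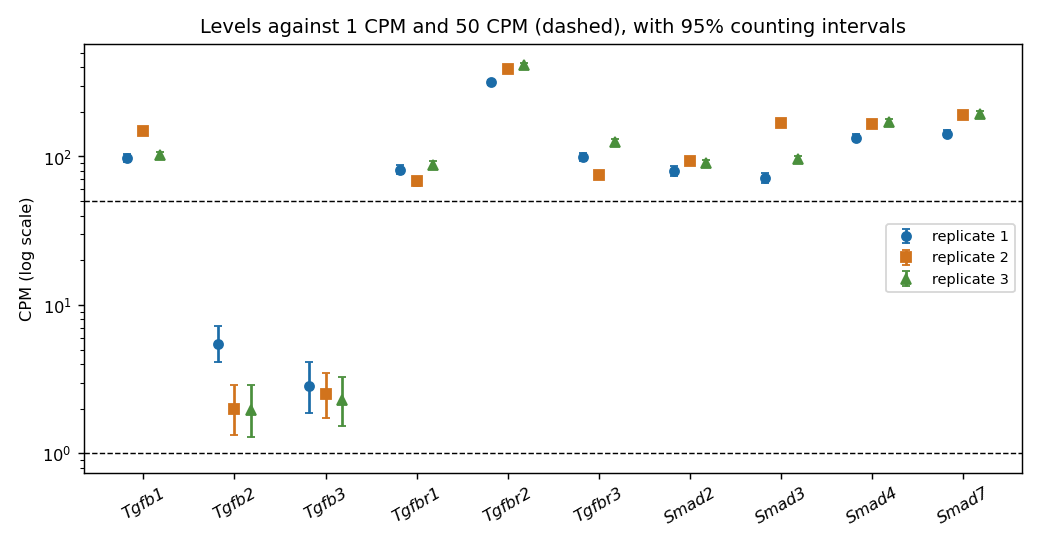
Level of each member in CPM (log axis), 1 symbol per library, with 95% exact Poisson intervals as bars and dashed lines at 1 and 50 CPM. All 3 libraries lie above 50 CPM for 8 members, and between 1 and 50 CPM for Tgfb2 and Tgfb3.

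Of the 10 members, 10 lay above 1 CPM by edgeR's test, against 68.6% of all genes tested. Above 50 CPM lay 8 of 10, against 19.9% of all genes tested, and below it lay 2 of 10, against 66.7%. Both of these numbers were the same without replicate 1. The median member had a mean of 106 CPM, and the median gene tested had 12.4 CPM. CPM does not correct for gene length. Per kilobase the gap was smaller, with medians of 19.2 CPM per kilobase for the members and 5.50 for all genes tested. All 10 members passed the filter on low counts.

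Per kilobase, the mean level ran from Tgfbr2 (77.8 ± 10.5 CPM per kilobase, SD, n = 3) through Tgfb1 (55.3 ± 13.2), Smad4 (47.0 ± 6.20), Smad7 (39.4 ± 6.50), Smad3 (21.9 ± 9.77), Tgfbr3 (16.5 ± 4.10), Tgfbr1 (14.0 ± 1.78) and Smad2 (9.57 ± 0.751) to Tgfb3 (0.751 ± 0.0857) and Tgfb2 (0.668 ± 0.429). Neighbours in this order overlapped between libraries except Tgfbr1 with Smad2 and Smad2 with Tgfb3. Within each library Tgfbr2 exceeded Tgfb1 in 3 of 3, but Tgfb1 exceeded Smad4 in 2 of 3 and Smad3 exceeded Tgfbr3 in 1 of 3. The gap below Smad2 was the widest step between neighbours, 3.65 ± 0.27 on the log2 scale to Tgfb3. The order of Tgfb1 rests on the gene length used. Its deposited length was 2094 bases, while all exons annotated in GENCODE vM21, retained introns included, cover 5042 bases. With that length Tgfb1 stood at 23.0 CPM per kilobase, in place 4 behind Tgfbr2, Smad4 and Smad7.

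The genes nearest in level per kilobase over the 3 libraries were Usp7 and Brd2 for Tgfbr2, Pa2g4 and Aatf for Tgfb1, and Ndufs7 and Supt20 for Smad4. The root mean square difference of log2 level over 3 libraries was 0.03 and 0.05 for Tgfbr2, 0.02 and 0.05 for Tgfb1, and 0.02 and 0.03 for Smad4. With 3 libraries such closeness describes level and pattern together and separates few genes.

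**Figure D3:**
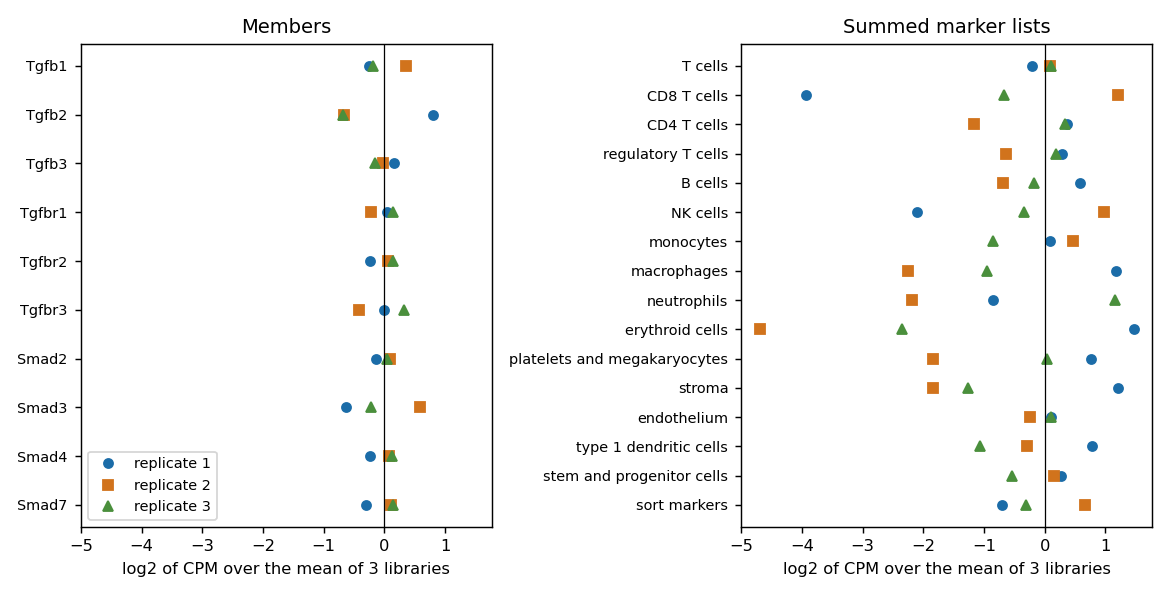
Left, each member in each library as the log2 of its CPM over its mean of 3 libraries. Right, the same for the summed CPM of each cell type marker list, on the same axis. Most members stay within 0.5 of their mean, with Smad3 and Tgfb2 the most uneven, while the CD8, NK, macrophage, neutrophil and erythroid lists spread further.

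Several marker lists differed between libraries by more than any member did, the most uneven member being Tgfb2 with 2.78-fold. CD8 T cell markers (Cd8a and Cd8b1) summed to 26.8, 947 and 258 CPM in replicates 1, 2 and 3, and the 5 NK cell markers to 58.3, 494 and 199 CPM. Both lists had replicate 2 highest and replicate 1 lowest, an order also seen in the members Tgfb1, Smad2 and Smad3. Of these members, only Smad3 had counting intervals that lay apart in all libraries. In Tgfb1 the intervals of replicates 1 and 3 overlapped, and in Smad2 that of replicate 3 overlapped both others. The summed sort markers Kit, Ly6c1, Ly6c2 and Itgax (67.4, 174 and 88.8 CPM) had the same order. How common this order was among all genes was not tested. The 5 erythroid markers summed to 3531, 49.2 and 251 CPM and the 6 macrophage markers to 843, 77.8 and 193 CPM, all highest in replicate 1, with Epor and Vsig4 at no count in replicate 2. The 5 neutrophil markers summed to 161, 64.5 and 651 CPM, with Ly6g at no count in replicates 1 and 2. Platelets are known to store TGF-beta 1. Their 5 markers summed to 28.1, 4.64 and 16.9 CPM. This list was 1 of 9 among the 16 marker lists that were lowest in replicate 2. The part of these lists in the levels of the members was not tested.

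The remaining genes of the pathway were read in 7 lists of 76 genes, of which 74 were measured and 69 had enough counts to test. By edgeR's test 47 lay above 1 CPM, 19 above 50 CPM and 42 below 50 CPM, and the median of the 74 was 11.6 CPM. In shares of the 69, these are to be read against the same 68.6%, 19.9% and 66.7% of all genes tested. Without replicate 3 calls below 50 CPM were fewer throughout, 23 of 68 pathway genes and 36.8% of all genes tested.

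Of 11 genes that keep TGF-beta latent or release it, 2 lay above 50 CPM, against 19.9% of all genes tested. These were Nrros and Itgav. Nrros, which tethers latent TGF-beta 1 to myeloid cells, was read at 76.4, 115 and 78.2 CPM (edgeR adjusted p = 0.00161), and Itgav, the integrin chain that joins beta 8 or beta 6 to free the ligand, at 99.5, 99.1 and 89.9 CPM (4.24e-04). Furin, the convertase that cleaves the precursor, was read at 49.6, 70.0 and 62.6 CPM and was not separated from 50 CPM (0.111). Lrrc32, which encodes GARP, the tether of latent ligand on regulatory T cells, was read at 16.5, 4.42 and 15.1 CPM. Itgb8, the integrin chain beta 8, was read at 17.2, 2.00 and 11.0 CPM. Both were lowest in replicate 2. So were the sums of 9 of the 16 marker lists, among them the regulatory T cell markers Foxp3, Il2ra and Ikzf2 (summed level 339, 178 and 316 CPM), Cd4 (482, 167 and 470 CPM), and the B cell, macrophage, neutrophil, erythroid, platelet, stromal and endothelial lists. Single markers did not all share the order of their sum. Pecam1 (185, 151 and 195 CPM) made up most of the endothelial sum, while Cdh5 and Kdr were lowest in replicate 3 (0.684 and 1.44 CPM). Of the stromal markers, Col1a1 and Col1a2 were lowest in replicate 3, and Pdgfra, Pdgfrb and Lum in replicate 2. The part of these lists in the levels of Lrrc32 and Itgb8 was not tested. Itgb6, of epithelia, was lowest of the list per kilobase, with 2.54, 0.0713 and 0.835 CPM.

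The ligands and receptors of the activin and bone morphogenetic protein branches held no gene above 50 CPM. Of 11 other ligands measured, 7 could be tested, 2 lay above 1 CPM and 0 above 50 CPM with edgeR, with DESeq2 and with limma. None of the 7 had a fitted level over 50 CPM in edgeR, so no threshold on p could have placed any above it. Of all genes tested, 19.9% lay above 50 CPM. The 2 above 1 CPM were Gdf11, read at 12.8, 16.3 and 13.5 CPM, and Bmp7, read at 7.08, 1.64 and 6.23 CPM. Mstn, which encodes myostatin, had counts in replicate 1 alone (4 counts, 0.423 CPM), and for replicates 2 and 3 a count of 0 leaves room for 0.214 and 0.228 CPM, taken as 3 counts. Per kilobase its 0.158 in replicate 1 lay below the olfactory receptor mean of that library, 0.249. Of 12 other receptors 7 lay above 1 CPM, 0 lay above 50 CPM by the same tests, and all 12 lay below it. None of the 12 had a fitted level over 50 CPM in edgeR either. The share of all genes tested was 68.6% above 1 CPM, 19.9% above 50 CPM and 66.7% below 50 CPM. Without replicate 3, 7 of 12 lay below 50 CPM, against 36.8% of all genes tested. Highest per kilobase were Acvr1b, the activin type I receptor that also signals through Smad2 and Smad3, with 27.2, 45.3 and 35.5 CPM, and Bmpr2, the bone morphogenetic protein type II receptor, with 22.0, 31.0 and 17.1 CPM. Bambi, a decoy receptor, was lowest, with 1.90, 0.0713 and 1.06 CPM.

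Of the 4 other SMADs, Smad5 lay above 50 CPM (67.4, 101 and 108 CPM, edgeR adjusted p = 0.00141) and Smad1 below it (20.5, 28.7 and 26.7 CPM, 0.00252). Both transmit bone morphogenetic protein signals. Smad9, of the same branch, was read at 1.69, 0 and 0.0759 CPM, and Smad6, the inhibitory SMAD of that branch, at 0.951, 0 and 0.228 CPM. Per kilobase Smad7, at 31.9, 42.7 and 43.7 CPM per kilobase, thus stood far above the other inhibitory SMAD, Smad6, at 0.320, 0 and 0.0767. Smad9 stood at 0.315, 0 and 0.0141. In replicate 1 both Smad6 and Smad9 were near the olfactory receptor mean of that library, 0.249. Below 50 CPM lay 3 of these 4, against 66.7% of all genes tested. Without replicate 1 it was 1 of the 2 that could still be tested, against 63.1% of all genes tested, and without replicate 3 it was 1 of 3, against 36.8%.

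**Figure D4:**
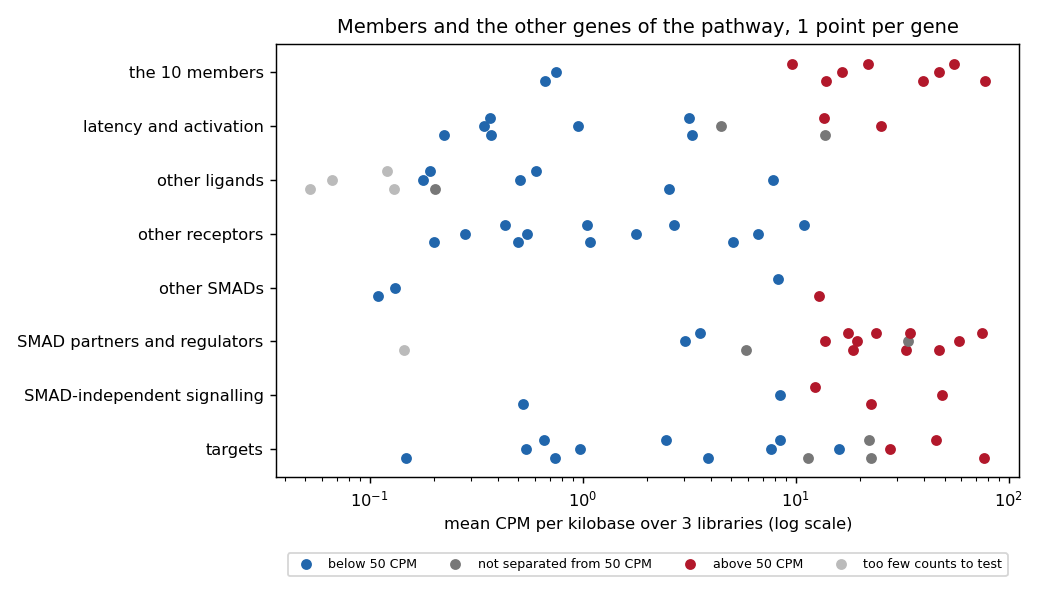
Mean level over 3 libraries in CPM per kilobase (log axis), 1 point per gene, for the 10 members and the 7 other lists, coloured by edgeR's test of CPM against 50 CPM. The SMAD partners lie mostly above 50 CPM, and the 12 other receptors all lie below it.

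SMAD partners and regulators were the list with the most genes above 50 CPM, 10 of 14 tested, against 19.9% of all genes tested. The lists differ in size, from 4 to 16 genes tested. Crebbp, a coactivator that acetylates histones beside bound SMADs, was read at 431, 685 and 572 CPM (edgeR adjusted p = 2.41e-07). Usp15, a deubiquitinase that stabilises the type I receptor, was read at 193, 171 and 202 CPM (4.83e-06). Foxh1, a SMAD-binding factor of the embryo, was lowest and had counts in replicate 1 alone (0.528 CPM). Of 5 genes of SMAD-independent signalling, 3 lay above 50 CPM, against the same 19.9%. They were Tab2 (187, 217 and 217 CPM) and Map3k7 (109, 150 and 131 CPM), which encode an adaptor and the kinase TAK1, and Traf6 (62.5, 70.3 and 68.8 CPM), the ligase upstream of them. Dab2, an adaptor of the receptors, was read at 5.71, 0 and 1.59 CPM.

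Among 16 measured target genes, 11 lay above 1 CPM and 3 above 50 CPM, while 10 lay below 50 CPM. Of all genes tested 68.6%, 19.9% and 66.7% did so, shares near those of the targets. Without replicate 3, 5 of 16 lay below 50 CPM, against 36.8% of all genes tested. Above 50 CPM stood 2 genes that restrain SMADs, Ski at 198, 234 and 315 CPM and Skil at 168, 169 and 222 CPM (edgeR adjusted p = 3.37e-06 and 7.59e-06). The third was Id2, a helix-loop-helix inhibitor of lymphocytes that TGF-beta is known to repress in other cells, at 142, 64.1 and 87.2 CPM (0.00281). Tgfbi, a secreted matrix protein named for its induction by TGF-beta, was read at 52.5, 96.0 and 32.6 CPM and was not separated from 50 CPM (0.339). Foxp3, the factor of regulatory T cells, was read at 53.8, 26.9 and 54.2 CPM (0.52). Itgae, which encodes CD103 and is induced by TGF-beta on T cells, was read at 15.1, 24.6 and 13.4 CPM, below 50 CPM (0.00138). These targets also answer to other signals, and with 1 group no change in them was measured.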

How the data were processed

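Per the labels' protocols, 8 ng of RNA entered a stranded low-input kit that reads total RNA. The authors deposited whole-number read counts and 1 gene length in bases for each of 17857 genes. Per the submitters' processing notes, the tools were STAR 2.75, featureCounts, bcl2fastq and DESeq2 1.18.1, and the build was mm10, with no roles given. Annotation, strand setting and filters are not given in the sources used here.

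Library totals were scaled by TMM factors of 1.04, 1.01 and 0.950 in edgeR 4.0.16 (R 4.3.3). CPM were divided by the deposited length for levels per kilobase. Genes with at least 10 counts in sum entered edgeR's quasi-likelihood F-test of an intercept-only model, with 1 or 50 CPM in the offsets. It was computed from edgeR's fits with the steps of its own test function, which takes no model of 1 column. It was tested on simulated data. Alternatives used DESeq2 1.42.0, limma 3.58.1, other scalings, other filters and the removal of each library. Differences between members used a prior count of 0.5 and exact sign-flip permutation. Intervals are exact 95% Poisson intervals. The limit set by a count of 0 was 3 counts, or 0.317, 0.214 and 0.228 CPM per library. Coordinates come from RefSeq on GRCm38.p6.

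The members, lists and tests were chosen with earlier results of these data known. Genes named are the members, the 2 highest and the lowest of each pathway list per kilobase, Lrrc32, Nrros, Itgb8, Tgfbi, Foxp3, Itgae, Skil and Ski, genes in counts of 5 or fewer, and the 2 genes nearest in level to each of the 3 highest members. Inhbb and Ccn2 were not analysed here, and 1 target gene that the rule names is not reported here.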

Additional observations from a re-analysis of the deposited data

How the results depend on the processing

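The 8 members above and the 2 below 50 CPM kept those calls under all 11 alternatives, and all 10 lay above 1 CPM in 8 of them. With 1 library left out the number above 1 CPM was 9 each time. Among the 74 other pathway genes, the 42 below 50 CPM became 24 with edgeR's expression filter, under which 50 were tested and 56.1% of all genes lay below 50 CPM. Without 1 library they ranged from 23 to 44. The lowest came without replicate 3, where the share of all genes was 36.8%, against 66.7% with all libraries. Tgfb3 minus Tgfb2 per kilobase, 0.34 on the log2 scale, reversed to -0.14 in CPM without gene length, since Tgfb2 is the longer gene. The mean of the other 7 differences between members kept its sign with no length, with a prior count of 2, with each library left out and with GENCODE exon lengths, an alternative chosen after seeing the data. With no length Smad3 minus Smad2 shrank to 0.26 (1.11 per kilobase), Smad4 minus Smad2 to 0.84 (2.29) and Smad7 minus Smad2 to 0.99 (2.03). Without 1 library Tgfb3 minus Tgfb2 ranged from 0.12 to 0.74. No paired analysis was possible because the labels give 1 group. Depth limits Tgfb2 and Tgfb3, with 26 to 52 counts per library.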
